A study of Mus musculus with 12 samples.

Results

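The epithelial keratins Krt7, Krt8, Krt18, Krt19, Krt20 and Krt80 and the filament protein vimentin (Vim) were followed in mouse cells taken after renal ischemia/reperfusion injury (IRI). The 7 genes were chosen by name, and each matched 1 row among the 50433 genes of the table of renal tubular epithelial cells (TECs) and 1 row among the 50434 genes of the table of neutrophils (PMN). All mice had IRI, made by clamping the renal pedicles for a time, and were wild-type male C57BL/6J mice of 8 to 12 weeks. One group received glutamine, given as the dipeptide alanyl-glutamine into a vein, and the other received saline as vehicle. No sham-operated mouse is among these libraries, so that levels cannot be set against an uninjured kidney. Cells were taken 24 hours after IRI. TECs were sorted from the kidney as cells without CD45 and with Prominin-1, and PMN came from peripheral blood. Each of the 4 groups had 3 libraries: TEC vehicle replicates 3, 4 and 5, TEC glutamine replicates 1, 2 and 3, and PMN replicates 1, 2 and 3 of each treatment, where the PMN numbers were given here in the order of the samples and are names only. The labels do not say whether each library is 1 mouse, so that p-values measure only the spread between these samples, which may be technical.

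Keratins are the intermediate filaments of epithelia. A type I keratin (here Krt18, Krt19 and Krt20) pairs with a type II keratin (here Krt7, Krt8 and Krt80) to build a filament. Krt8 and Krt18 are the basic pair of simple epithelia, Krt7 and Krt19 are typical of ducts, and Krt20 is best known from gut and urothelium. Injured tubules are known to raise several keratins. Vimentin builds the filaments of mesenchymal cells, endothelium and leukocytes, and is also made by tubular cells that have lost their mature state after injury. A lower level of these genes with glutamine would therefore be one readout of less dedifferentiation, and this is the question that the comparison addresses.

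The genes lie in 3 places of the mouse genome (GRCm38, GENCODE M21). The type II genes and Krt18 share a cluster on chromosome 15, with Krt80 at chr15:101347444-101370162 on the minus strand, Krt7 at chr15:101411043-101430313 on the plus strand, Krt8 at chr15:101996698-102004482 on the minus strand and Krt18 at chr15:102028180-102032027 on the plus strand. Krt8 and Krt18 are neighbours read away from each other, with 23697 bases between them. The type I genes Krt20 at chr11:99428403-99438150 and Krt19 at chr11:100140810-100148665 both lie on the minus strand of chromosome 11, and Vim lies at chr2:13573927-13582826 on the plus strand. Upstream sequence was held in RefSeq's promoter table (GRCm38.p6) for 5 members, Krt7, Krt8, Krt18, Krt20 and Vim. The 3 that gave most of the keratin counts are printed 5′ to 3′, each cut before the first annotated exon, because they sit before the most abundant keratin gene and before the paired neighbours. Capitals mark a TATA box (TATAAA). Krt8 is chr15:102004483-102004592 on the minus strand, Krt18 is chr15:102027966-102028179 on the plus strand, and Krt20 is chr11:99438154-99438403 on the minus strand.

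Krt8: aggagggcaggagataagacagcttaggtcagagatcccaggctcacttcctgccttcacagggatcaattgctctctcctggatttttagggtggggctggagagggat
Krt18: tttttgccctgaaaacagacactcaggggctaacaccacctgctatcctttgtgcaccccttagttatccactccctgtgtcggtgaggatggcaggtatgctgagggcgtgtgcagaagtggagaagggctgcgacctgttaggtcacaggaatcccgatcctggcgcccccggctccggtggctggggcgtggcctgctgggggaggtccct
Krt20: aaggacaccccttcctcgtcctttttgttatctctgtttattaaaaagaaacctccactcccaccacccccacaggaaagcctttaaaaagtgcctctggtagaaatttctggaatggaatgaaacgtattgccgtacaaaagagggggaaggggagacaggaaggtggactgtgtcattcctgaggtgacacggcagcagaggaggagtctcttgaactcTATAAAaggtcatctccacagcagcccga

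Within the 250 bases before the start site, searched on both strands, TATAAA was found in Krt20 with its first base at position -29 and in Vim at position -32. It was present in 12.4% of the 32851 promoters of the table. The GC box GGGCGG was found 4 times in Krt7 alone among these 5 genes and in 32.7% of all promoters. CCAAT was found 2 times in Vim and in 33.8% of all promoters. The AP-1 site TGANTCA was in none of the 5 and in 6.75% of all promoters. The searched windows of Krt7 (chr15:101412153-101412402) and Vim (chr2:13574061-13574310) lie inside the gene spans given above and overlap annotated exons. No 2 motifs overlapped. These matches describe letters in a window and nothing more.

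The TEC libraries held 5397370 to 10223461 counts, with glutamine replicate 2 the shallowest, and the PMN libraries held 20225225 to 21878430. Levels are given as CPM, the counts of a gene relative to the library total after TMM scaling, which evens out library size and composition. The sort marker Prom1, which encodes Prominin-1, had 64.6 to 76.5 CPM with vehicle and 75.0 to 83.5 CPM with glutamine. Ptprc, which encodes CD45, had at most 2.74 CPM in any TEC library. Proximal tubule genes summed to 14422 to 16019 CPM with vehicle and to 11706 to 20210 CPM with glutamine. Genes of other cells were present in the sort. Endothelial markers summed to 392 to 626 CPM with vehicle and to 382 to 537 CPM with glutamine. Thick ascending limb markers summed to 1047 to 2056 CPM with vehicle and to 1301 to 2292 CPM with glutamine. In bulk RNA, fewer cells of a type and less RNA per cell cannot be told apart.

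In TECs after IRI, Krt20 and Krt8 dominated the keratin transcripts, and none of the 7 genes passed the test of glutamine against vehicle. Per kilobase of the longest protein-coding transcript of the annotation, the mean level over the 6 libraries was 463 CPM for Krt20, higher than 98.8% of the 14575 tested genes with a length. Krt8 followed with 205 CPM per kilobase and Krt18 with 88.3. Krt7 with 21.4 and Vim with 21 lay side by side, and Krt19 with 5.78 and Krt80 with 0.766 CPM per kilobase came last. Within every library Krt20 lay above Krt8, Krt8 above Krt18, Krt18 above Krt7, Vim above Krt19 and Krt19 above Krt80. Krt7 was above Vim in 4 of 6 libraries, so that these neighbours did not differ beyond their spread. Over all libraries, the ranges of Krt7 and Vim overlapped, those of Krt20 and Krt8 met at 270 CPM per kilobase, and those of the remaining 4 pairs of neighbours did not meet. The order was the same when levels were divided by the length of all exons together. Levels depended on the length chosen: by that length Krt7 had 12.4, Vim 9.71, Krt19 4.91 and Krt80 0.47 CPM per kilobase.

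**Figure D1:**
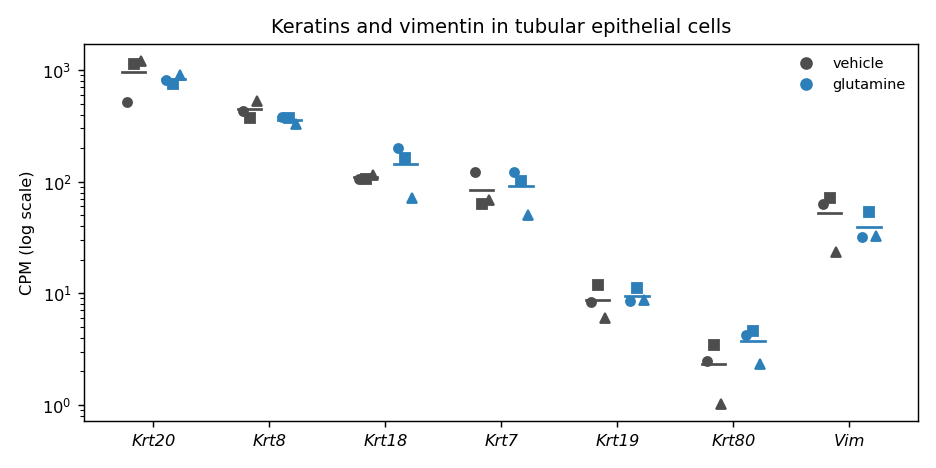
Level of the 7 genes in each TEC library, in CPM on a log scale. Grey is vehicle (circle, square and triangle are replicates 3, 4 and 5), blue is glutamine (replicates 1, 2 and 3), and each line is the mean of 3 libraries. Krt20 spans 520 to 1206 CPM and Krt80 1.02 to 4.62 CPM, and grey and blue points overlap for every gene.

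The make-up of the keratins was counted over the 53 protein-coding keratin genes of the table. In TECs, 17 of them had no count in any library and 10 were abundant enough to be tested. These were the 6 keratins followed here and Krt5, Krt10, Krt12 and Krt23. The 6 keratins held 96.9% to 99.0% of all keratin counts in each library and 0.129% to 0.190% of all counts. Krt20 alone held 43.0%, 66.7% and 61.2% of the keratin counts in vehicle replicates 3, 4 and 5 and 52.9%, 52.2% and 64.4% in glutamine replicates 1, 2 and 3. Krt8 held 36.0%, 21.5% and 26.8% with vehicle and 24.6%, 25.9% and 23.1% with glutamine. The library that stood apart was vehicle replicate 3, with the lowest share of Krt20 and the highest shares of Krt8 and Krt7.

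**Figure D2:**
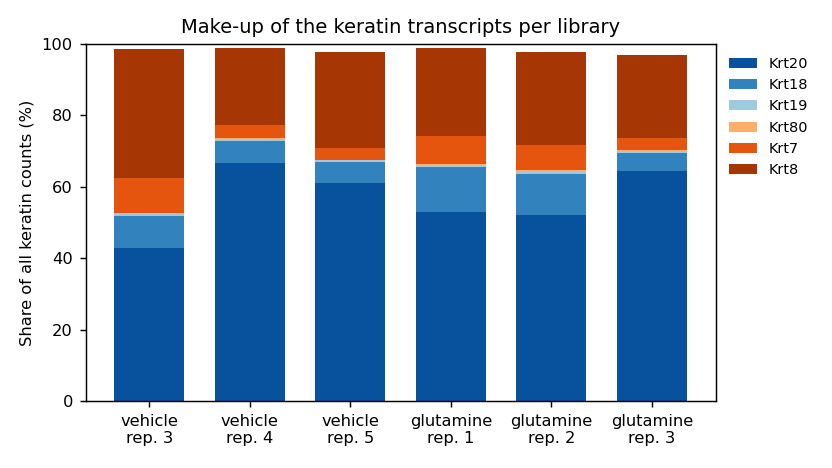
Share of all keratin counts, in percent, taken by each of the 6 keratins in each TEC library, with type I keratins in blue and type II keratins in orange. The gap up to 100% is the other keratin genes. Krt20 is the largest block in all 6 libraries, at 43.0% to 66.7%.

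Krt8, the type II partner that every simple epithelium makes, had 435, 369 and 529 CPM in vehicle replicates 3, 4 and 5. With glutamine it had 384, 371 and 327 CPM in replicates 1, 2 and 3. The highest library was a vehicle library and the lowest a glutamine library, but vehicle replicate 4 lay among the glutamine libraries. The means were 444 ± 80.3 CPM and 361 ± 29.6 CPM (SD, n = 3), a log2 fold change of -0.30 (SE 0.19, 95% interval -0.72 to 0.12), with an adjusted p of 0.527 in edgeR's quasi-likelihood test. Without vehicle replicate 5 it was -0.16 and without vehicle replicate 4 it was -0.42, with adjusted p of 0.695 and 0.671.

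Krt18, the type I partner of Krt8, had 106, 106 and 116 CPM with vehicle. The glutamine libraries held 200, 162 and 71.9 CPM. Thus 2 glutamine libraries lay above all vehicle libraries and 1 below all of them. The vehicle libraries spread 1.10-fold from lowest to highest and the glutamine libraries 2.78-fold. The log2 fold change was 0.40 (SE 0.31, 95% interval -0.28 to 1.09, edgeR adjusted p = 0.614), and it was 0.73 without glutamine replicate 3 and 0.09 without glutamine replicate 1, with adjusted p of 0.234 and 0.937.

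The ratio of Krt18 to Krt8 counts put these partners beside each other within a library. It was 0.243, 0.286 and 0.220 in the vehicle libraries. In glutamine replicates 1, 2 and 3 it was 0.521, 0.436 and 0.220. Replicates 1 and 2 of glutamine were above every vehicle library, and replicate 3 was at the level of the lowest vehicle library. On the log2 scale the difference was 0.56, with a two-sided p of 0.3 in an exact permutation test, in which 3 libraries against 3 cannot go below 0.1. This difference was 0.32 without glutamine replicate 1 and 0.93 without glutamine replicate 3. Summed over the 6 keratins, the level was 1192, 1695 and 1926 CPM with vehicle and 1541, 1399 and 1373 CPM with glutamine, a log2 difference of -0.13 (exact permutation test, two-sided p = 0.6). The summed difference was -0.33 without vehicle replicate 3, -0.08 without vehicle replicate 4 and 0.01 without vehicle replicate 5.

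Krt20, a type I keratin, had 520, 1143 and 1206 CPM in the vehicle libraries. It had 824, 748 and 912 CPM in the glutamine libraries, all between the vehicle extremes. The vehicle libraries spread 2.32-fold, because replicate 3 was low, and the glutamine libraries 1.22-fold. The means were 956 ± 379 CPM and 828 ± 82.3 CPM (SD, n = 3), with a log2 fold change of -0.21 (SE 0.28, 95% interval -0.82 to 0.41, edgeR adjusted p = 0.787). Without vehicle replicate 3 it was -0.51 with an adjusted p of 0.512, without vehicle replicate 4 it was -0.06 with an adjusted p of 0.982, and without vehicle replicate 5 it was -0.01 with an adjusted p of 0.991.

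Krt7, a type II keratin of ducts, had 121, 63.1 and 68.5 CPM with vehicle and 121, 102 and 50.5 CPM with glutamine. The same top level was reached in vehicle replicate 3 and glutamine replicate 1. Krt7 had a log2 fold change of 0.12 (SE 0.34, 95% interval -0.63 to 0.86, edgeR adjusted p = 0.913). The sign was not stable: the value was -0.06 without vehicle replicate 4, -0.02 without vehicle replicate 5 and -0.14 without glutamine replicate 1, and up to 0.46 without another library. One of its transcripts shares a stretch of up to 191 bases, at 90% identity or more, with transcripts of 81 other genes, so that some of its counts are uncertain.

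Krt19, the type I keratin of ducts, had 8.29, 11.9 and 6.01 CPM with vehicle and 8.53, 11.2 and 8.66 CPM with glutamine, and the glutamine libraries all fell within the vehicle range. Krt80, a type II keratin of low abundance, had 2.47, 3.4 and 1.02 CPM with vehicle and 4.20, 4.62 and 2.30 CPM with glutamine. Of the glutamine libraries 2 were above all vehicle libraries and the third was among them. The log2 fold changes were 0.11 (SE 0.37) for Krt19 and 0.68 (SE 0.63) for Krt80, with 95% intervals of -0.70 to 0.93 and -0.71 to 2.06 and edgeR adjusted p of 0.926 and 0.682. For Krt19 the value was -0.10 without vehicle replicate 5, -0.03 without glutamine replicate 2 and up to 0.40 without another library. For Krt80 it was 1.07 without vehicle replicate 4 and 0.32 without vehicle replicate 5, with adjusted p of 0.762 and 0.826.

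Vim, the mesenchymal filament gene, had 63.7, 70.7 and 23.3 CPM in vehicle replicates 3, 4 and 5. It had 32.2, 53.6 and 32.7 CPM in glutamine replicates 1, 2 and 3. Vehicle replicates 3 and 4 were the highest 2 libraries and vehicle replicate 5 the lowest of all 6, so that the groups overlapped. The means were 52.6 ± 25.6 CPM and 39.5 ± 12.2 CPM (SD, n = 3), with a log2 fold change of -0.42 (SE 0.38, 95% interval -1.25 to 0.41, edgeR adjusted p = 0.672). Without vehicle replicate 5 it was -0.78, with an adjusted p of 0.179, and without glutamine replicate 2 it was -0.70, with an adjusted p of 0.680. Without vehicle replicate 3 it was -0.26 and without vehicle replicate 4 it was -0.15, with adjusted p of 0.905 and 0.962.

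**Figure D3:**
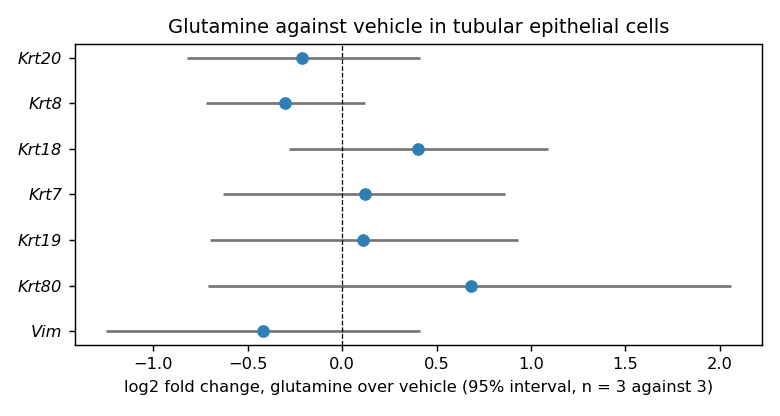
Log2 fold change of glutamine over vehicle in TECs for the 7 genes, with points for the edgeR estimate and bars for the 95% interval (3 against 3 libraries). Every bar crosses 0, and the estimates run from -0.42 for Vim to 0.68 for Krt80.

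Of the 7 genes, 0 had an adjusted p below 0.05, as did 0 of the 14734 genes tested (0%). Krt8, Krt20 and Vim had a negative and the other 4 genes a positive log2 fold change, with a median of 0.11 (the signs of Krt7 and Krt19 turn with the library left out and with scaling by library totals), against 49.4% negative and a median of 0.01 over all genes tested. At an unadjusted p below 0.05 the 7 genes gave 0 as well (among the alternatives, Krt8 passed it when scaled to library totals only, Krt20 without vehicle replicate 3, Vim without vehicle replicate 5 and Krt18 without glutamine replicate 3), where 5.58% of all genes were lower and 7.32% higher with glutamine. No gene of the 7 had groups that did not overlap, where 9.81% of all genes were lower in every glutamine library than in any vehicle library and 9.01% higher. DESeq2 called 246 of 12738 genes in TECs (1.93%) and none of the 7. The intervals still allow changes of some size, so that these values do not show equal levels.

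Other genes of the filament system and of the injured tubule were counted from lists. Of 6 tested vimentin-class and lamin genes, 4 were lower and 2 higher, with a median log2 fold change of -0.18. Lmnb2, which encodes a lamin of the nuclear envelope, had 19.0, 15.0 and 15.0 CPM with vehicle and 9.37, 4.42 and 10.3 CPM with glutamine. The groups did not overlap, with an edgeR adjusted p of 0.295, where 9.81% of all genes were lower without overlap. Nes, the filament gene nestin, had a log2 fold change of 0.04. Of 12 tested linkers and desmosome genes, 5 were lower and 7 higher (median 0.22), with Jup, the junction protein plakoglobin, at 0.15 and Plec, the linker plectin, at -0.02. Of 15 tested partners and modifiers of keratins, 9 were lower and 6 higher (median -0.18), and the chaperone Hspa8 had -0.01. Of 16 tested transcription factors, 8 were lower and 8 higher, with Klf6 at 0.17, Jun at -0.29 and Fos at -0.37. None of these genes passed the adjusted threshold.

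The dedifferentiation and injury genes had more members with lower than with higher values, while the adhesion and proximal tubule genes had more with higher values. The lists were chosen with earlier results of these data known, so that these counts are descriptions and not independent support. Of 26 tested dedifferentiation and injury genes, 18 were lower and 8 higher with glutamine (median -0.39), of which 4 and 1 had an unadjusted p below 0.05. Over all genes tested, 49.4% were lower, and 5.58% were lower and 7.32% higher at that p. Their summed level was 14493, 11000 and 4960 CPM in the vehicle libraries and 8525, 7260 and 5305 CPM in the glutamine libraries. Vehicle replicate 5 was the lowest library here as it was for Vim. Spp1, the secreted glycoprotein osteopontin, had 6608, 6323 and 1784 CPM with vehicle and 3981, 2778 and 2106 CPM with glutamine. Lcn2, the injury marker lipocalin-2, had 3599, 1493 and 695 CPM with vehicle and 1729, 1551 and 1052 CPM with glutamine. For both, vehicle replicates span the glutamine range, and edgeR gave adjusted p of 0.507 and 0.773.

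Of 13 tested genes of the adhesion switch, which holds epithelial cadherins and their mesenchymal counterparts, 2 were lower and 11 higher (median 0.50). Because the list mixes genes of both states, this count does not show a move toward either. Cdh1, Cdh16 and Epcam, named as its most abundant tested genes, are all epithelial. Cdh1, the epithelial cadherin, had 143, 186 and 196 CPM with vehicle and 338, 279 and 203 CPM with glutamine. Every glutamine library was above every vehicle library, by a log2 fold change of 0.64 (SE 0.23), with an edgeR adjusted p of 0.287. Of all genes tested, 9.01% were higher without overlap. Cdh16, another cadherin, had 311, 226 and 394 CPM with vehicle and 325, 417 and 340 CPM with glutamine. Its groups overlapped, with a log2 fold change of 0.22. Epcam, an adhesion molecule of epithelia, had a log2 fold change of 0.50 and an adjusted p of 0.493 in edgeR. Of 15 tested proximal tubule genes, 3 were lower and 12 higher (median 0.33). Slc34a1, the phosphate transporter of the proximal tubule, had a log2 fold change of 0.54 and Aqp1, its water channel, -0.73, with edgeR adjusted p of 0.405 and 0.410.

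Markers of other cells were set beside these levels. Collecting duct and connecting tubule markers, whose cells make Krt7, Krt8, Krt18 and Krt19, summed to 248, 172 and 133 CPM with vehicle and to 358, 179 and 146 CPM with glutamine. Of these 8 genes 7 were tested, none was at 0 in every library, and 2 were lower and 5 higher. Aqp2, the water channel of principal cells, had 141, 104 and 65.0 CPM with vehicle and 225, 88.2 and 73.0 CPM with glutamine, so that vehicle replicate 3 and glutamine replicate 1 were the highest libraries, as for Krt7. Vehicle replicate 4 lay above glutamine replicate 2 for Aqp2 and below it for Krt7. Calb1, of the same list, had 27, 25.8 and 25.5 CPM with vehicle and 45.6, 46.6 and 41.1 CPM with glutamine. Distal convoluted tubule markers (4 of 4 tested, all higher) summed to 127, 76.8 and 69.4 CPM with vehicle and to 181, 209 and 97.9 CPM with glutamine, and glutamine replicates 1 and 2 were the highest libraries, as for Krt18. In glutamine replicate 3, Krt18 was at its lowest (71.9 CPM), while the distal convoluted tubule sum lay above vehicle replicates 4 and 5. Of 5 tested thick ascending limb markers, 1 was lower and 4 higher. Slc12a1, among them, had 38.3, 45 and 38 CPM with vehicle and 53, 143 and 104 CPM with glutamine. The groups did not overlap for Calb1 and Slc12a1 (edgeR adjusted p of 0.218 and 0.202), where 9.01% of all genes were higher without overlap. Their part in the keratin levels was not tested.

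For Vim, endothelial markers (9 of 9 tested, 7 lower and 2 higher) summed to 515, 626 and 392 CPM with vehicle and to 382, 537 and 482 CPM with glutamine. Vehicle replicate 4 was the highest library in both, while the lowest was glutamine replicate 1 for these markers and vehicle replicate 5 for Vim. Fibroblast and pericyte markers (4 of 8 tested) summed to 18.7 to 25.0 CPM with vehicle and to 31.7 to 57.8 CPM with glutamine, most of it from Cspg4 and Col1a2. The collagen genes Col1a1 and Col3a1 were low, with means of 1.10 and 0.503 CPM with vehicle and 0.274 and 0.303 CPM with glutamine. Podocyte markers (4 of 4 tested, 2 lower and 2 higher) summed to 130, 125 and 73 CPM with vehicle and to 108, 132 and 101 CPM with glutamine, with the same 3 highest libraries as Vim and the same lowest one. Parietal epithelium markers (5 of 5 tested, 3 lower and 2 higher) summed to 442, 355 and 369 CPM with vehicle and to 206, 312 and 282 CPM with glutamine, lower in every glutamine library. The largest part of this sum in each library was Akap12, with 334, 246 and 261 CPM with vehicle and 99.7, 200 and 171 CPM with glutamine. The Akap12 groups did not overlap (edgeR adjusted p of 0.24), where 9.81% of all genes were lower without overlap. Prom1 had means of 70.4 CPM with vehicle and 80.2 CPM with glutamine. Among blood cells, general leukocyte markers (6 of 6 tested, all higher) summed to 13.3 to 21.6 CPM with vehicle and to 17.3 to 47.2 CPM with glutamine. Macrophage and dendritic cell markers (8 of 9 tested) summed to 44.1 to 90.8 and to 66.7 to 139 CPM, and neutrophil markers (6 of 10 tested) to 102 to 245 and to 119 to 255 CPM. Urothelial markers, of an epithelium known for Krt20, summed to 3.58 to 14.7 CPM over all libraries (3 of 8 tested, 1 lower and 2 higher). Psca had 3.95, 0.806 and 2.75 CPM with vehicle and 0, 0.402 and 1.75 CPM with glutamine. Upk1a, a membrane protein of urothelium, had 0.493, 0.717 and 2.85 CPM with vehicle and 4.8, 10.8 and 4.61 CPM with glutamine, with Upk2 at 0 in all 6 and Upk3a at 0 in all but vehicle replicate 5, where it had 1.83 CPM. The Upk1a groups did not overlap (edgeR adjusted p of 0.246), where 9.01% of all genes were higher without overlap. The part of RNA from these other cells in the Vim and Krt20 levels was not tested.

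The genes whose pattern over the 6 TEC libraries was most like that of a member were found among 8415 genes with a mean of at least 10 CPM, as the smallest root mean square difference of centred log2 values. For Vim these were Ren1, the renin gene (0.107), Mal, an apical sorting protein of epithelia (0.111), and Gm8126, a predicted gene (0.162), against a deviation of 0.577 of Vim from its own mean. Mal had 216, 235 and 82.7 CPM with vehicle and 122, 160 and 122 CPM with glutamine. For Krt8 they were Kdelr1 (0.073), Aars (0.075) and Cyth2 (0.076), against 0.219, and for Krt20 they were Pfdn2 (0.117), Pogz (0.118) and Rnf126 (0.121), against 0.405. With 6 libraries, a close pattern among 8415 genes is a description.

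**Figure D4:**
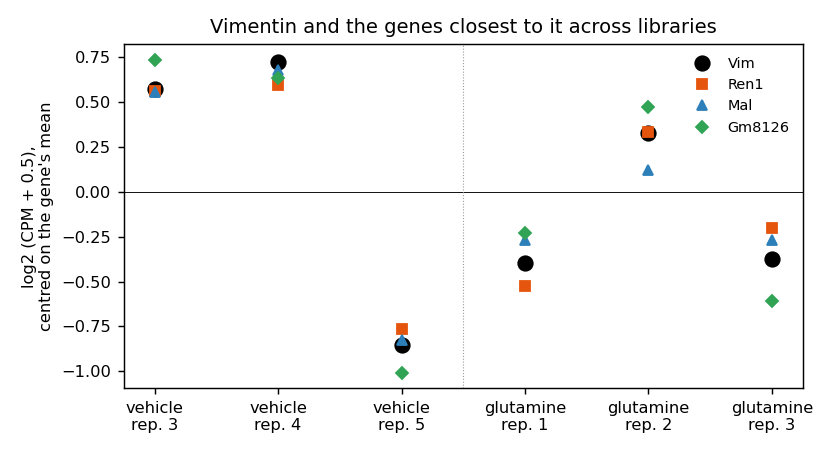
Log2 of CPM + 0.5, centred on each gene's mean, of Vim, Ren1, Mal and Gm8126 in each TEC library. All 4 genes are highest in vehicle replicates 3 and 4 and lowest in vehicle replicate 5.

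In PMN, labelled as blood neutrophils, Vim was abundant and Krt19 and Krt20 were at 0. Krt8, Krt18 and Krt80 were at 0 in some libraries and not in others, and Krt7 had a count in all 6, from 1 to 315. Per kilobase, Vim had 252 CPM on average, higher than 96.8% of 10017 tested genes. It had 719, 489 and 874 CPM with vehicle and 472, 543 and 225 CPM with glutamine. The highest 2 libraries were vehicle libraries and the lowest was a glutamine library, and the groups overlapped. The means were 694 ± 194 CPM and 414 ± 167 CPM (SD, n = 3), with a log2 fold change of -0.75 (SE 0.40, 95% interval -1.71 to 0.21, edgeR adjusted p = 1). This fold change was -0.46 without glutamine replicate 3 and -1.03 without glutamine replicate 2. The neutrophil markers summed to 49656, 30712 and 52889 CPM with vehicle and to 73042, 39133 and 22082 CPM with glutamine, and the lowest of these libraries, glutamine replicate 3, was also the lowest for Vim. The highest was glutamine replicate 1 for the neutrophil markers and vehicle replicate 3 for Vim. Macrophage and dendritic cell markers summed to 11739, 15309 and 22618 CPM with vehicle and to 12153, 21940 and 26040 CPM with glutamine, above the neutrophil sum in glutamine replicate 3. Endothelial markers (4 of 9 tested, all lower) summed to 102, 2291 and 2.85 CPM with vehicle and to 58.9, 13.5 and 89.4 CPM with glutamine. Fibroblast and pericyte markers summed to 104 CPM in vehicle replicate 2 and to at most 9.52 CPM elsewhere. The part of other leukocytes, endothelium and fibroblasts in the Vim levels was not tested.

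Krt20 and Krt19 had 0 counts in all 6 PMN libraries. A count of 0 allows up to 3 counts, or 0.137 to 0.158 CPM depending on the library. This bound covers counting error only. Krt20 was the most abundant keratin in TECs, with at least 520 CPM in each library.

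Krt8 had 42.6, 24.7 and 0 CPM with vehicle and 0, 0.0471 and 11.9 CPM with glutamine. Krt18 had 5.11, 0 and 0 CPM with vehicle and 35.4, 0 and 7.93 CPM with glutamine, so that the partners did not go together: vehicle replicate 2 held 542 counts of Krt8 and 0 of Krt18, and glutamine replicate 1 held 673 of Krt18 and 0 of Krt8. Krt80 had 56.9, 89.6 and 2.47 CPM with vehicle and 0, 9.05 and 28.1 CPM with glutamine. In 4 of 6 libraries this was above the highest TEC level of 4.62 CPM, on tables that were scaled separately. Krt7 had 1.05, 1.64 and 8.42 CPM with vehicle and 0.790, 14.8 and 0.0502 CPM with glutamine. The groups overlapped for all of them. Fold changes of genes at 0 in a library depend on the prior count and are not given. In edgeR, 5 of the 7 genes were tested, the adjusted p was 1 for each, and 0 of 10130 genes passed the threshold (0%). At an unadjusted p below 0.05, the 5 gave 0, where 1.28% of the tested genes were lower and 2.04% higher. Groups that did not overlap made up 4.64% of the tested genes as lower and 5.87% as higher.

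**Figure D5:**
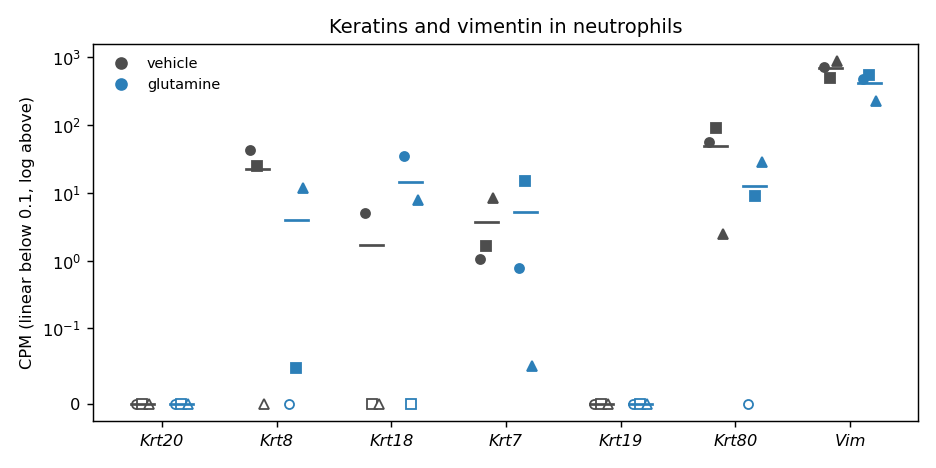
Level of the 7 genes in each PMN library, in CPM on an axis that is linear below 0.1 and logarithmic above. Grey is vehicle and blue glutamine, circle, square and triangle are replicates 1, 2 and 3, open symbols mark 0, and each line is the mean of 3 libraries. Vim lies between 225 and 874 CPM, and Krt8 and Krt18 are present in some libraries and at 0 in others.

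This on-and-off pattern was common in the PMN table. Of 7163 tested PMN genes with a mean of at least 10 CPM, 29.8% were at 0 in at least 1 library, against 0.166% of 8416 such genes in TECs, and the median ratio of the highest to the lowest library was 34.5 against 1.91. The 2 columns of each PMN library, which are not replicates, gave nearly the same values. Log2 values across genes correlated at 0.995 to 0.996 between them, against 0.771 to 0.824 between libraries. Both columns belong to 1 library, so that their agreement does not tell where the pattern arose, which was not tested. Of the 53 keratin genes, 43 had no count in any PMN library. Proximal tubule genes were present in all 6 PMN libraries, at 567, 376 and 470 CPM with vehicle and 407, 295 and 457 CPM with glutamine in sum, and Kap, an androgen-regulated gene of the proximal tubule, had 187 to 402 CPM. Some other kidney markers were high in 1 library. In vehicle replicate 2, endothelial markers summed to 2291 CPM, podocyte markers to 1677 CPM and parietal epithelium markers to 390 CPM. Elsewhere these sums were at most 102, 8.78 and 8.62 CPM. In vehicle replicate 1, thick ascending limb markers summed to 1025 CPM and distal convoluted tubule markers to 227 CPM, against at most 33.6 and 4.57 CPM elsewhere. Krt8 and Krt80 were highest in these 2 libraries, while Krt18 was highest in glutamine replicate 1 and Krt7 in glutamine replicate 2. Their part in the keratin levels was not tested.

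Copies and overlaps bear on these counts. The processed copy Krt8-ps, alike over 941 bases at 98.6% identity, and Gm5200, alike to Krt18 over 1267 bases at 90.5% identity, had 0 counts in all libraries of both tables. Krt80 overlaps the antisense gene Gm35853, which had 884 counts in PMN glutamine replicate 3 and 0 in the other PMN libraries. Whether strand was used in counting is not stated, and without strand the reads that fall in the 195 bases shared by the transcripts of both genes cannot be told apart. The longest coding transcript of Krt80 has 3919 bases. In that library Krt80 had 561 counts, while PMN vehicle replicates 1 and 2 held 1136 and 1965 counts of Krt80 with 0 of the antisense gene.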

How the data were processed

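For sorted TECs and for PMN, the authors deposited unnormalized estimated counts, 1 row per gene symbol. The submitters' processing notes name Trim Galore 0.6.4, Salmon 1.0.0, FastQC, MultiQC, DESeq2 and the build mm10. Reads of 50 bases came from one end of libraries primed on poly(A). The deposited PMN counts had been resaved by a spreadsheet program: 3.2% of cells carried extra points and 0.391% had become dates. They were decoded, which leaves an error below 1 count for dates, and used as estimated counts in place of the planned plain counts. The 2 columns of each PMN library were averaged as 1 replicate. Counts were rounded. Each table was fitted alone over all genes with edgeR 4.0.16 in R 4.3.3 (TMM, default filter, robust quasi-likelihood test, Benjamini-Hochberg threshold of 0.05), after a test on simulated data. Standard errors come from the fold change and the F statistic. DESeq2 1.42.0, limma 3.58.1, other scalings, filters, thinning and leaving out each library were alternatives. Ratios within a library were compared by an exact permutation test. CPM per kilobase used the longest protein-coding GENCODE M21 transcript. The symbols of 96.8% of the table's genes matched that annotation. Transcripts alike over 100 bases or more were found with blastn 2.17.0. Named genes are the 7 members, at most the 3 most abundant tested genes of each list, and the genes closest to Krt8, Krt20 and Vim. Ptprc, Col1a1 and Col3a1, of the sort check, and Upk2, Upk3a, Krt8-ps, Gm5200 and Gm35853 stand beside a result. The members and lists were chosen with earlier results of these data known.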

Additional observations from a re-analysis of the deposited data

How the results depend on the processing

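In TECs, the log2 fold changes of the 7 genes kept their direction in 97 of 105 alternative values, and none passed the threshold, with a lowest adjusted p of 0.179. Scaled by library totals only, which moves the median of all genes to -0.16, Krt7 had -0.06 and Krt19 -0.07, Krt8 -0.46 (unadjusted edgeR p of 0.0241, adjusted 0.253), Krt20 -0.36, Krt18 0.24, Vim -0.62, Krt80 0.49 and the keratin sum -0.30. Krt19 also had -0.11 when libraries were thinned to the smallest. With limma-voom, Krt20 had -0.11, Krt18 0.26 and Krt7 0.07. Leaving out 1 library at a time gave -0.14 to 0.46 for Krt7 and -0.10 to 0.40 for Krt19. The summed keratin difference ranged from -0.33 to 0.01 in the same way, and the Krt18 to Krt8 difference from 0.32 to 0.93. In PMN, 74 of 76 values kept their direction, with a lowest adjusted p of 0.544. This count includes Krt8, Krt18 and Krt80, which were at 0 in some libraries and whose fold changes depend on the prior count. Their kept signs therefore do not measure stability. The values that turned were those of Krt7, which had 0.50 in the main fit. They were -1.36 with limma-voom and -3.15 without glutamine replicate 2, in a range of -3.15 to 1.94 without 1 library. The causes of these reversals were not tested.

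Over all TEC genes, the calls at the adjusted threshold were 0 with edgeR, 246 with DESeq2, 398 without an expression filter and 7 after thinning, and ranged from 0 to 38 without 1 library, with 4 without vehicle replicate 5 and 38 without glutamine replicate 2. In PMN it was 0 with edgeR and 309 with DESeq2. The causes of these shifts were not tested.

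No paired analysis was possible because only number 3 occurs in both groups of TEC libraries, and the PMN labels carry no replicate numbers. Depth limits Krt80 most in TECs, where 3 counts are worth 0.269 to 0.603 CPM and Krt80 had 1.02 to 4.62 CPM.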

Other observations

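Of the 10 keratins tested in TECs, the one with the largest ratio of highest to lowest library was Krt12, a type I keratin known from the cornea. It had 1.09, 3.22 and 25.3 CPM in vehicle replicates 3, 4 and 5 and 3.96, 17.3 and 25.1 CPM in glutamine replicates 1, 2 and 3, from 11 to 248 counts. The highest libraries belonged to both groups. It held 0.0898% to 1.77% of the keratin counts of a library and had 0 counts in all 6 PMN libraries. Krt12 was singled out after its values were seen.

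Krt10, a type I keratin of stratified epithelia, had 5.41 to 9.57 CPM in TECs, and Krt5, a type II keratin of basal cells, had 0.888 to 2.08 CPM. In PMN, Krt86, a type II keratin of hair, had 15.4, 0 and 0 CPM with vehicle and 1, 14.5 and 0 CPM with glutamine. It was chosen after its values were seen.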
